A study of Drosophila melanogaster and Drosophila melanogaster x Drosophila simulans and Drosophila simulans with 6 samples.

Results

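Among 14256 protein-coding genes of the Drosophila simulans genome, 126 (0.884%) gave far more reads in the ovaries of F1 hybrids with D. melanogaster than in the ovaries of D. simulans itself. They were chosen from the measured values. The estimated counts of each library were scaled to a total of 1000000 over its D. simulans genes (CPM), and a gene was taken when it had at least 2 CPM in both hybrid libraries and its lower hybrid value was at least 4 times the higher D. simulans value. Of the 7390 D. simulans genes that reached 2 CPM in both hybrid libraries, the 126 make up 1.71%. Because these hybrid and D. simulans values chose the genes, they are given below as a description, without a test, and only the D. melanogaster genes and the D. melanogaster libraries, which the choice did not use, are compared by other means.

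An F1 hybrid carries 1 genome of each species in every cell, so each D. simulans gene is read by regulatory proteins of both parents. Most of the RNA of a fly ovary comes from germline nurse cells and the follicle cells around them, with smaller amounts from the muscle sheath and from blood cells attached to it. In counts from whole ovaries, more cells of a type and more RNA per cell cannot be told apart.

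The study sequenced 6 libraries of polyadenylated ovarian RNA, 2 of each group. The groups were D. melanogaster Hmr2, D. simulans w501, and F1 hybrid females from Hmr2 mothers and w501 fathers. Hmr2 is a mutation of Hmr, a gene of hybrid lethality, with which some hybrid females survive, and the stock holds an X chromosome inversion as well. Hybrids were reared in the cool, and whether the parents were is not given in the sources used here. Hybrid ovaries were picked for having several ovarioles with egg chambers, the study calls its replicates biological, and the number of animals in a library is not given.

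The libraries held 12981002 to 22363396 estimated counts. D. simulans genes took 54.9% and 52.3% of the counts in hybrids, 97.4% and 97.3% in D. simulans, and 2.99% and 2.73% in D. melanogaster, where all of them are reads placed in the wrong species. On the D. melanogaster genes, markers of other cells of the ovary moved with the hybrid group. For scale, 2.99% of all 8202 tested D. melanogaster genes were called higher in hybrids and 10.3% lower. All 6 tested hemocyte genes were higher in hybrids, and the summed level of the list went from 7.10 and 6.01 CPM in D. melanogaster to 49.6 and 51.6 CPM in hybrids. NimC1, eater and Sr-CI had only 10 and 4, 6 and 1, and 12 and 3 counts in D. melanogaster. These genes passed the filter on low counts through the hybrid libraries alone, where they are high. Of 17 tested muscle genes 12 were higher, with sums of 1188 and 1014 CPM against 2958 and 2751 CPM. Of 22 tested follicle cell and eggshell genes 19 were lower, with sums of 19812 and 13446 CPM against 4231 and 5225 CPM. Of 19 tested testis and sperm genes none was called higher and 1 was called lower. Their median log2 fold change was 0.69, and the sums of the list were 165 and 195 CPM against 311 and 313 CPM. The readable orthologous pairs held none of the hemocyte genes, 1 muscle gene, 2 testis genes and 8 follicle cell genes. Whether listed genes are among the raised D. simulans genes could therefore not be looked up for most. In every D. melanogaster and hybrid library, 1 gene each of the hemocyte, testis, fat body, neuron and heat shock lists was under 1 count. So were 4 immune and 5 gut genes. Of 21 tested germline genes 7 were lower and 1 was higher, with sums of 6836 and 8039 CPM in D. melanogaster and of 7179 and 7252 CPM in hybrids. In the other lists, 2 of 3 tested fat body genes, 2 of 3 neuron, 2 of 6 immune and 3 of 6 detoxification genes were lower, with 0 higher. Spermatheca and oviduct genes gave 2 higher and 1 lower of 5. None was called among 13 heat shock and stress genes and 4 male accessory gland genes, and no gut gene was tested. The part of all these shifts in the raised genes was not tested.

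Together the raised D. simulans genes held a small part of the counts of each library. Scaled to the counts of the whole library (whole-library CPM), their sum was 286 and 304 in D. simulans, 3101 and 3091 in hybrids, and 619 and 484 in D. melanogaster. The hybrid libraries lay close to each other and far above the other 4. For D. simulans the rule fixes this order. The sums in D. melanogaster are reads placed in the wrong species and not levels of these genes. Single genes ranged widely, with mean hybrid levels from 2.04 to 1049 CPM, a median of 10.003 CPM and 14 genes at or above 100 CPM. The fold between the mean levels had a median of 14.9, and reached 10 in 81 genes, 50 in 20 and 100 in 9. For the 13 genes with 3 or fewer counts in each D. simulans library, this fold was computed against 3 counts per library and is a lower bound. The hybrid replicates differed by more than 1.5 times in 21 of the 126 genes and by more than 2 times in 6.

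**Figure D1:**
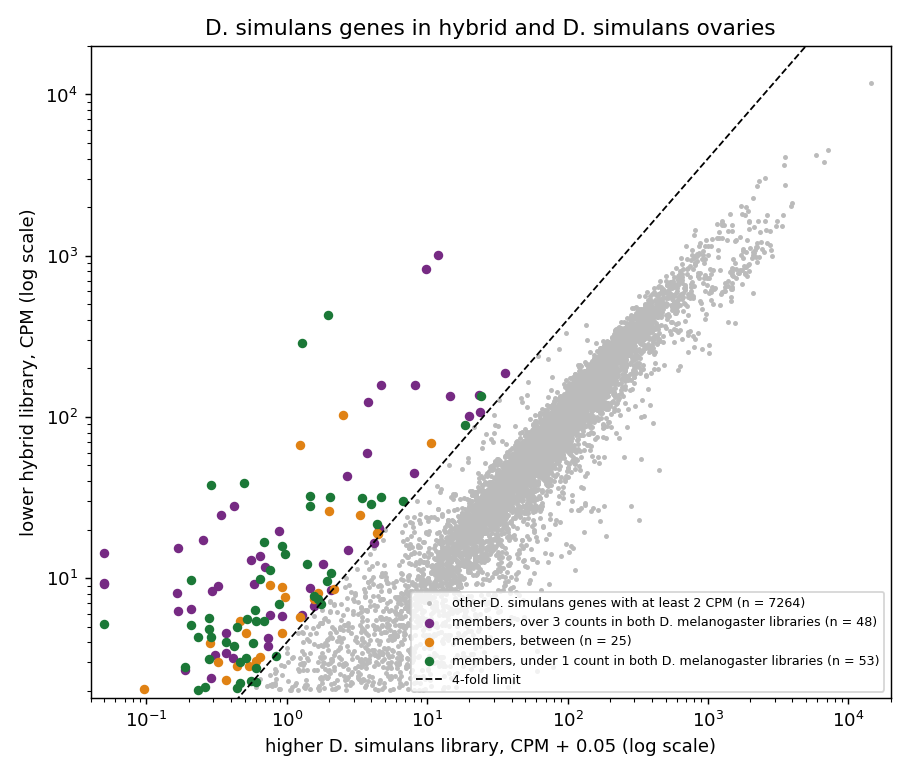
The lower hybrid CPM (vertical, log scale) of D. simulans genes with at least 2 CPM in both hybrid libraries is plotted against the higher D. simulans CPM plus 0.05 (horizontal, log scale). The 126 raised genes, coloured by their counts in the D. melanogaster libraries, lie above the dashed 4-fold limit by construction, and the other 7264 genes (grey) mostly run parallel to it as a band.

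The limit cut through a continuous spread of genes. Just inside it lay LOC6727555, with 4.01 times the higher D. simulans value, LOC6729511 with 4.06 times and LOC6726483 with 4.08 times. Just outside lay LOC6737208 with 3.998, LOC6735029 with 3.97 and LOC6734461 with 3.97. LOC6737208 had 86.3 and 94.8 CPM in hybrids against 21.6 and 16.4 CPM in D. simulans. This change was close to that of the genes just inside the limit. Most of the 126 genes changed more, with a median fold between the mean levels of 14.9. In all, 61 genes had a ratio between 3 and 4, so the number 126 is set by the limit.

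Silence in D. simulans was rarely complete. Of the 126 genes, 47 (37.3%) were below 0.5 CPM in both D. simulans libraries and 79 were not. The same 47 make up 0.636% of the 7390 genes with 2 CPM in both hybrids. Any of the 7390 genes below 0.5 CPM in D. simulans meets the 4-fold limit, so this share among the 126 follows from the rule. An estimated count of exactly 0 in both D. simulans libraries was found for 3 genes, LOC120284994, LOC123327103 and LOC27206596, and LOC6740263 was below 0.01 counts in both. Without D. simulans replicate 2, the deeper of that pair, the rule is looser and took 176 genes, 72 of them silent.

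These 4 genes differed in what the D. melanogaster libraries held. LOC6740263 had 47.9 and 110 counts in hybrids and 0 in both D. melanogaster libraries, so neither parent had a count there. LOC27206596 had 104 and 82.1 counts in hybrids and 10.05 and 10 in D. melanogaster. LOC120284994 had 132 and 146 counts in hybrids but 393 and 216 in D. melanogaster, and LOC123327103 had 86.3 and 137 counts in hybrids but 1702 and 832 in D. melanogaster. In whole-library CPM the latter stood at 5.13 and 8.01 in hybrids against 87.6 and 61.0 in D. melanogaster, so both hybrid libraries lay below both D. melanogaster libraries.

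The strongest hybrid signal came from genes that no source used here names. LOC120284833 had 1013 and 1084 CPM in hybrids against 11.5 and 11.98 CPM in D. simulans, and LOC120284434 had 822 and 869 CPM against 9.74 and 6.11 CPM. Each had reads in D. melanogaster too, with 1073 and 655 counts for the former and 1112 and 611 counts for the latter. In whole-library CPM, LOC120284833 stood at 556 and 567 in hybrids against 55.2 and 48.1 in D. melanogaster. The latter values are reads placed in the wrong species and not a level of this gene.

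Among the 113 genes with more than 3 counts in at least 1 D. simulans library, the widest contrasts between hybrid and D. simulans levels belonged to a pair of genes without any D. melanogaster count. LOC6726258 had 451 and 429 CPM in hybrids and 1.23 and 1.93 CPM in D. simulans, 278-fold between the means. LOC120285374 had 287 and 315 CPM in hybrids and 1.22 and 0.962 CPM in D. simulans, 275-fold. Neither had a single count in the D. melanogaster libraries, so no read of D. melanogaster ovaries was placed on either gene.

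The other 6 of the 10 most abundant genes showed smaller contrasts. LOC120284975 had 158 and 271 CPM in hybrids against 3.27 and 8.10 CPM in D. simulans, and LOC120285823 had 231 and 158 CPM against 1.94 and 4.65 CPM. LOC6730188 had 202 and 187 CPM in hybrids against 29.6 and 35.6 CPM, and LOC120285375 had 137 and 171 CPM against 19.3 and 23.5 CPM. LOC6737254 had 135 and 153 CPM in hybrids against 13.6 and 14.5 CPM, and LOC6729881 had 134 and 150 CPM against 24.3 and 18.7 CPM. None of these 6 was silent in D. simulans, and LOC6729881 alone among them had no count in D. melanogaster.

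Counts in D. melanogaster are reads of that species placed on the raised D. simulans genes. They depend on how readily reads are misplaced and on how many reads the matching D. melanogaster gene gives, which these counts cannot tell apart. At least 1 count in at least 1 D. melanogaster library was found for 73 of the 126 genes (57.9%), against 78.8% of the 7390 genes with 2 CPM in both hybrids. More than 3 counts in both libraries were found for 48 genes (38.1%, against 43.9% of the 7390), under 1 count in both for 53 (42.1%, against 21.2%), and 25 lay between. The 53 genes summed to 864 and 832 whole-library CPM in hybrids and to 85.4 and 84.3 in D. simulans, a difference that the rule fixes. Their sum in the D. melanogaster libraries was under 0.01 whole-library CPM. The 48 genes summed to 2002 and 2010 in hybrids, 616 and 482 in D. melanogaster and 166 and 182 in D. simulans.

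Compared with D. melanogaster in whole-library CPM, both hybrid libraries lay above both D. melanogaster libraries for 113 of the 126 genes, below both for 7, and overlapped for 6. Of the 7390 genes, 99.0% lay above and 0.338% below. Against the mean of the parental group means in whole-library CPM, the hybrid level was more than 4 times higher for 104 of the 126 genes and more than 2 times for 118, and for 121 it was above that mean at all. The median ratio was 9.44, against 1.21 over the 7390 genes, of which 2.29% were over 4. The D. simulans part of this ratio was used by the rule, and its D. melanogaster part consists of reads placed in the wrong species. The ratio is therefore a description.

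The 5 raised genes with the highest level in the D. melanogaster libraries are given next. LOC123327076 had 23.8 and 37.7 whole-library CPM in hybrids, above 2.58 and 1.55 in D. simulans and below 137 and 88.9 in D. melanogaster. LOC6730429 had 56.0 and 58.6 in hybrids, against 41.9 and 33.2 in D. melanogaster, and 19.0 and 19.4 in D. simulans. The former lay in hybrids between the parental libraries, with both hybrid libraries below both of D. melanogaster, and the latter lay above all parental libraries. The D. melanogaster values are reads placed in the wrong species, not levels of these genes. The remaining 3 of the 5 genes with the highest level in D. melanogaster were LOC123327103, LOC120284833 and LOC120284434, described above.

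**Figure D2:**
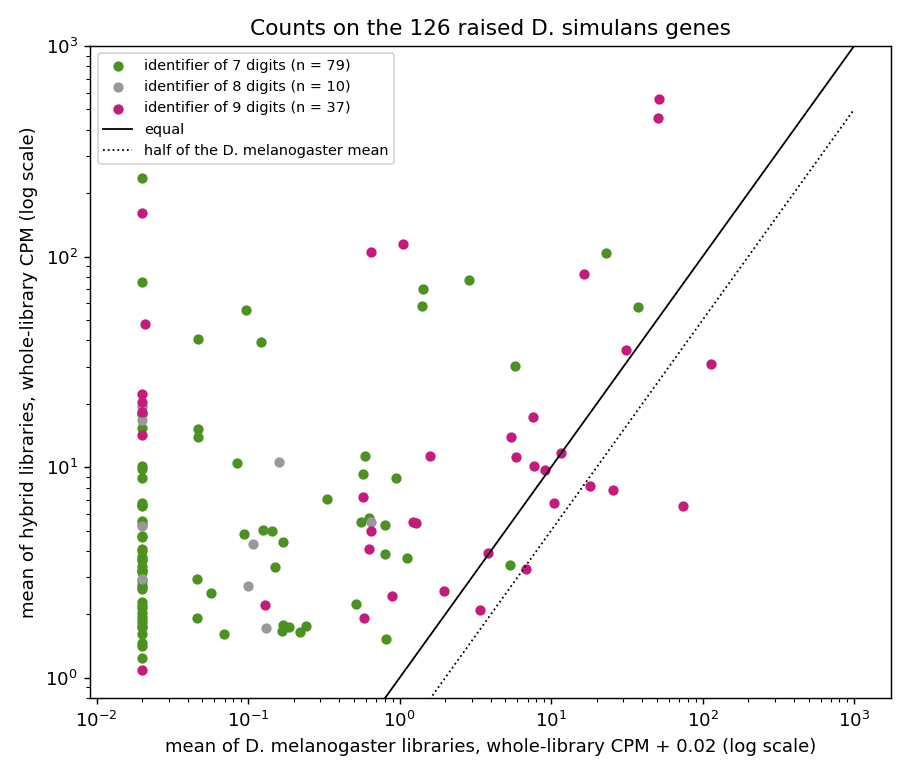
Mean whole-library CPM in hybrids (vertical, log scale) of the 126 raised genes against the mean in D. melanogaster plus 0.02 (horizontal, log scale), coloured by the number of digits in the gene identifier. Genes at the left edge have almost no D. melanogaster counts, and 12 of the 13 genes that are not above both D. melanogaster libraries have identifiers of 9 digits.

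Many of the raised genes had late identifiers. Gene identifiers are numbered in order of entry, so long numbers belong to gene models added late to the annotation. Identifiers of 9 digits belonged to 37 of the 126 genes (29.4%), against 2.35% of the 7390 genes and 4.43% of all 14256. They made up 28 of the 48 genes with more than 3 counts in both D. melanogaster libraries, and 7 of the 53 with under 1 count. Of the 13 genes for which the hybrids were not above both D. melanogaster libraries, 12 had such an identifier, and the exception was LOC6731280, the D. simulans gene paired with Nlg2. Whether these gene models have near copies elsewhere in either genome was not tested.

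A D. melanogaster counterpart was known for 25 of the 126 genes, from a list of orthologous pairs of which only a part could be read, and 101 genes had no entry in that part. The D. melanogaster counterpart was not used by the rule, but its counts are not fully separate from those of the D. simulans gene, since misplaced reads of the latter, at the rate seen in the D. simulans libraries, would reach 100% or more of the hybrid counts on the D. melanogaster gene in 9 of the 25 pairs. The quasi-likelihood test of edgeR was run over 8202 D. melanogaster genes, of which 245 (2.99%) were called higher and 841 (10.3%) lower in hybrids, at a Benjamini-Hochberg adjusted p below 0.05 and at least 1 on the log2 scale. Among the 1935 tested genes of the readable pairs, 47 (2.43%) were higher and 242 (12.5%) lower.

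Of the 25 counterparts, 10 were called higher in hybrids, 2 lower, 8 were not called and 5 had too few counts for the test. The filter on low counts favours genes that are high in 1 group. Of the 10 higher counterparts, 6 passed it through the hybrid libraries alone: stan, vn, Ance-5, SmydA-9, CG13403 and CG10013. Only 4, Pxn, SK, tnc and beat-IIIc, passed it in both groups. Beside these 4, CG14314 (lower) and 5 counterparts that were not called passed in both groups. CG1503 (lower) and 3 counterparts that were not called passed through the D. melanogaster libraries alone. The rule used the contrast of hybrids with D. simulans, in which edgeR called 5.18% of 8207 D. simulans genes higher and 9.75% lower, and nothing is read from it for the 126 genes. For all 10 higher counterparts both hybrid libraries lay above both D. melanogaster libraries.

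**Figure D3:**
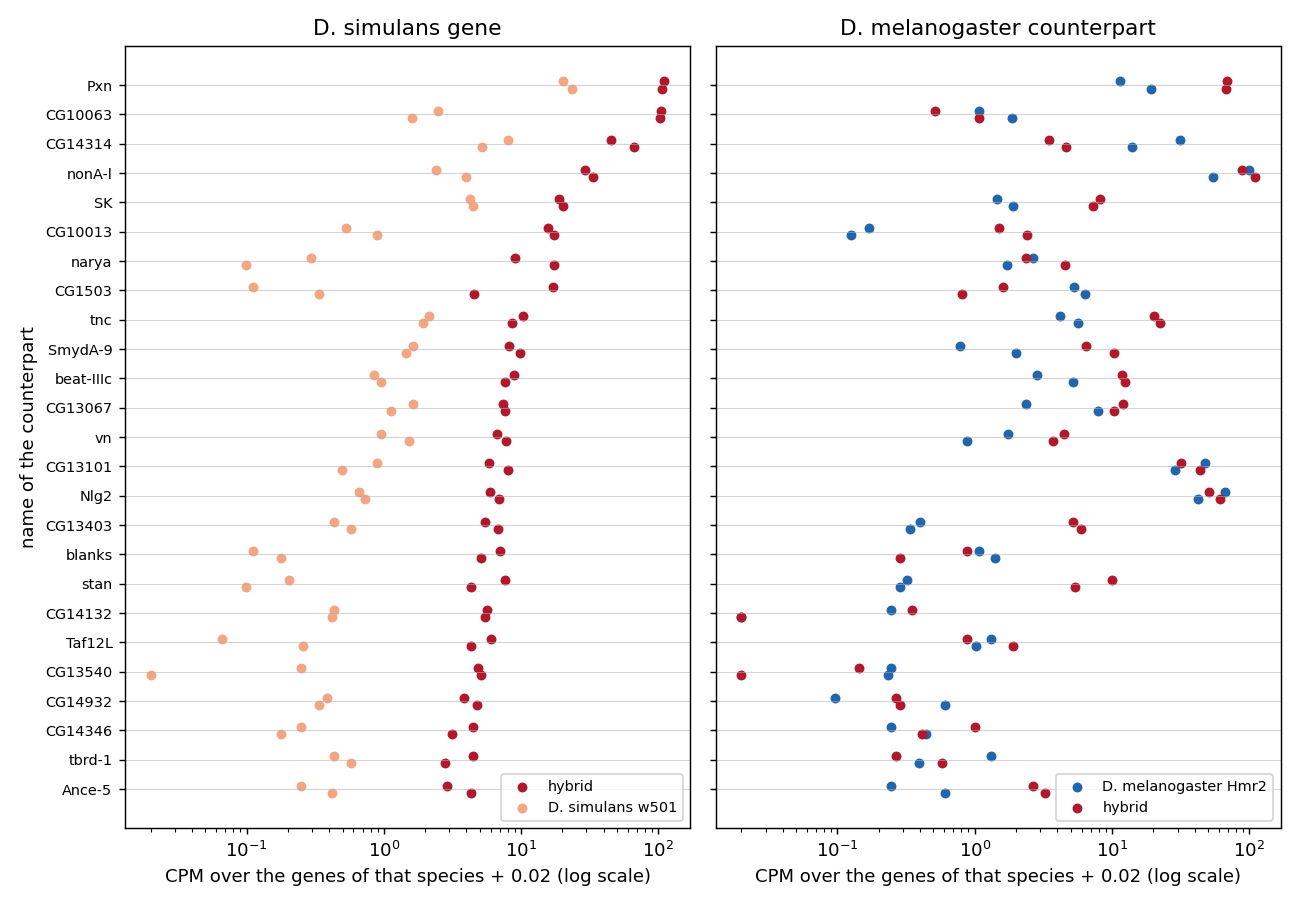
CPM over the genes of the species named above each panel (horizontal, log scale, plus 0.02) for the 25 raised genes with a named counterpart, 1 point per library. On the left the hybrid points lie above the D. simulans points by the rule, and on the right the hybrid points lie clear of the D. melanogaster points for some counterparts, such as stan and Pxn, and among them for others, such as Nlg2 and nonA-l.

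Each higher counterpart is described with its D. simulans gene. Pxn, peroxidasin, an enzyme that crosslinks collagen in the basement membrane and is made by hemocytes (chromosome 3L, 2601455 to 2630064 in the Release 6 assembly), had 19.3 and 11.5 CPM in D. melanogaster and 67.2 and 68.7 CPM in hybrids, over the D. melanogaster genes. Its log2 fold change was 1.97 with an SE of 0.27 and an edgeR adjusted p of 0.00412. The D. simulans gene, LOC6736509, had 107 and 111 CPM in hybrids against 23.7 and 20.2 CPM in D. simulans. On the D. melanogaster gene both hybrid values exceeded both D. melanogaster values, and on the D. simulans gene the rule fixes the order. The part of the hemocyte markers, described above, was not tested.

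tnc, tenectin, an extracellular matrix protein (chromosome 3R, 24984384 to 25022867), had 5.62 and 4.14 CPM in D. melanogaster and 22.1 and 20.3 CPM in hybrids on the D. melanogaster gene. The log2 fold change was 1.95 with an SE of 0.27 (edgeR adjusted p = 0.00412). The D. simulans gene, LOC6729511, one of the 3 nearest to the limit, had 8.57 and 10.3 CPM in hybrids against 1.90 and 2.11 CPM in D. simulans. On the D. melanogaster gene the hybrid libraries did not overlap those of D. melanogaster, and on the D. simulans gene the rule excludes overlap.

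stan encodes Flamingo, the cadherin of planar cell polarity (chromosome 2R, 10673345 to 10721138), and it had the largest fold change among the 20 tested counterparts. It passed the filter on low counts through the hybrid libraries alone, where it is high. Its D. melanogaster gene had 5 and 4 counts in D. melanogaster against 40.2 and 80.7 in hybrids, which came to 4.56 on the log2 scale with an SE of 0.54 (edgeR adjusted p = 0.00231). The D. simulans gene, LOC6733895, had 39.8 and 68.3 counts in hybrids against 1 and 4 in D. simulans, and 0 in D. melanogaster. Both parents had few reads of stan. Each hybrid library had more on the D. melanogaster gene, and on the D. simulans gene this follows from the rule.

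vn, vein, a ligand of the EGF receptor (chromosome 3L, 5813338 to 5845664), had 0.852 and 1.72 CPM in D. melanogaster and 3.71 and 4.41 CPM in hybrids, and a log2 fold change of 1.54 with an SE of 0.44 (edgeR adjusted p = 0.0453). beat-IIIc, a cell surface protein with immunoglobulin domains (chromosome 2L, 17187637 to 17260734), had 5.17 and 2.84 CPM in D. melanogaster and 12.3 and 11.7 CPM in hybrids, and a log2 fold change of 1.39 with an SE of 0.36 (edgeR adjusted p = 0.0345). The D. simulans gene of vn, LOC6736924, had 7.73 and 6.71 CPM in hybrids against 1.503 and 0.940 CPM in D. simulans, and that of beat-IIIc, LOC6732595, had 7.66 and 8.90 CPM against 0.925 and 0.827 CPM. The groups did not overlap on the D. melanogaster genes, and on the D. simulans genes the rule excludes overlap. The calls on the D. melanogaster genes were the weakest of the 10, and vn passed the filter on low counts through the hybrid libraries alone. Reads of D. simulans expected on vn made up 54.7% of its hybrid counts. This rate rests on only 0 and 10.5 counts on the D. melanogaster gene in the D. simulans libraries. With the expected reads taken off, an alternative chosen after seeing the data, the log2 fold change of vn was 0.40 (edgeR adjusted p = 0.594). Without hybrid replicate 1 the edgeR adjusted p was 0.0983 for vn and 0.0652 for beat-IIIc, and without hybrid replicate 2 it was 0.239 and 0.0635. Without D. melanogaster replicate 1 it was 0.101 for vn, and without D. melanogaster replicate 2 the log2 fold change of beat-IIIc was 0.97, under the limit of 1.

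SK, the calcium-activated potassium channel (chromosome X, 5340236 to 5405138), had 1.88 and 1.43 CPM in D. melanogaster and 7.26 and 8.20 CPM in hybrids on the D. melanogaster gene, a log2 fold change of 2.04 with an SE of 0.36 (edgeR adjusted p = 0.0103). The D. simulans gene, LOC6725157, had 20.04 and 18.8 CPM in hybrids against 4.43 and 4.24 CPM in D. simulans. Reads of D. simulans on the D. melanogaster gene limit this call, since the D. simulans libraries themselves put 27.0 and 49.7 counts there, and the reads expected from D. simulans came to 150% of those found in hybrids.

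The other higher counterparts were scarce in D. melanogaster and passed the filter on low counts through the hybrid libraries alone, where they are high. Ance-5, a relative of angiotensin-converting enzyme, had 0.583 and 0.226 CPM in D. melanogaster and 3.21 and 2.63 CPM in hybrids (log2 fold change 2.56, SE 0.53, edgeR adjusted p = 0.0170). SmydA-9, a protein with SET and MYND domains, had 1.96 and 0.754 CPM in D. melanogaster and 10.3 and 6.42 CPM in hybrids (log2 fold change 2.40, SE 0.51, edgeR adjusted p = 0.0188). CG13403 had 6 and 5 counts in D. melanogaster against 44.9 and 42.5 in hybrids, and its log2 fold change was 3.82 with an SE of 0.43 (edgeR adjusted p = 0.00208). CG10013 had 2 counts in each D. melanogaster library and 18 and 12 in hybrids, with a log2 fold change of 3.68 and an SE of 0.60 (edgeR adjusted p = 0.00772). Reads of D. simulans expected on CG10013 came to 21.95 and 19.2 counts in hybrids, 137% of those found. This rate rests on only 0 and 3 counts on the D. melanogaster gene in the D. simulans libraries. With the expected reads taken off, CG10013 had too few counts for the test. On all 4 the hybrid libraries were above both D. melanogaster libraries.

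CG14314 and CG1503 went opposite ways on the genes of the parents. On the D. melanogaster gene, CG14314 (chromosome 3R, 18216142 to 18218014) had 14.0 and 31.4 CPM in D. melanogaster and 4.60 and 3.46 CPM in hybrids, a log2 fold change of -2.62 with an SE of 0.41 (edgeR adjusted p = 0.00664). Its D. simulans gene, LOC6727602, had 67.1 and 45.0 CPM in hybrids against 5.22 and 8.01 CPM in D. simulans. CG1503 (chromosome X, 21104695 to 21106369) had 6.36 and 5.28 CPM in D. melanogaster and 0.791 and 1.59 CPM in hybrids, a log2 fold change of -2.42 with an SE of 0.45 (edgeR adjusted p = 0.0116). Its D. simulans gene, LOC6740265, had 4.55 and 17.2 CPM in hybrids against 0.316 and 0.0919 CPM in D. simulans. In both cases most hybrid reads of the pair fell on the D. simulans gene, 94.2% for CG14314 and 91.2% for CG1503. CG1503 passed the filter on low counts through the D. melanogaster libraries alone, where it is high. Its D. melanogaster gene had 6 and 13 counts in hybrids, and reads expected from D. simulans came to 516% of these, against 0% for CG14314. The rate for CG1503 rests on 2 and 1 counts in the D. simulans libraries.

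**Figure D4:**
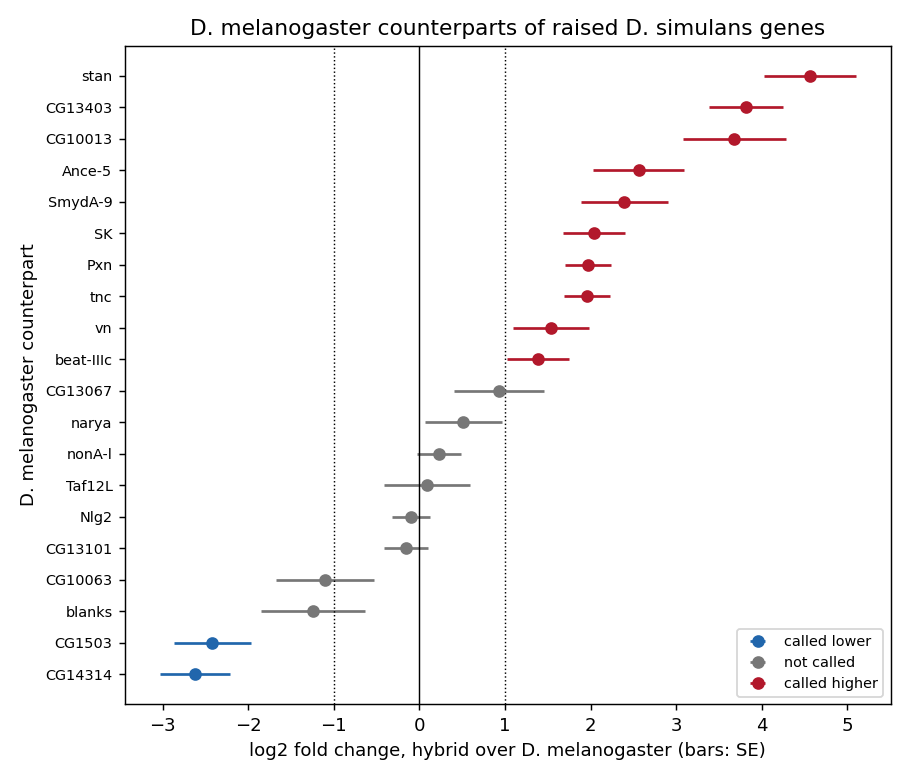
Log2 fold change of hybrid over D. melanogaster (horizontal, bars give the SE) for the 20 tested D. melanogaster counterparts, with dotted lines at 1 and -1. It runs from -2.62 for CG14314 to 4.56 for stan, with 10 called higher and 2 called lower.

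The counterparts without a call follow. blanks, a protein that binds double-stranded RNA and acts in spermatogenesis, had 2 counts in each D. simulans library on its D. simulans gene and 47 and 63 in hybrids. Taf12L, a testis paralog of a transcription initiation factor subunit, had 39.8 and 54 counts in hybrids against 3 and 1 in D. simulans. tbrd-1, a testis bromodomain protein, had 25.8 and 40 counts in hybrids against 7 and 9 in D. simulans. None of these D. simulans genes had a count in D. melanogaster libraries, and the rule sets the hybrid values above those of D. simulans.

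On the D. melanogaster genes of these, blanks had a log2 fold change of -1.25 with an SE of 0.61 (edgeR adjusted p = 0.163) and Taf12L of 0.09 with an SE of 0.50 (edgeR adjusted p = 0.901), and tbrd-1 was not tested. Missing the threshold does not show that these levels were equal. Their hybrid reads lay mostly on the D. simulans gene, 92.4% for blanks, 81.6% for Taf12L and 91.3% for tbrd-1. Reads of D. simulans expected on the D. melanogaster gene exceeded its hybrid counts in all 3. They came to 1528% of these counts for blanks, 111% for Taf12L and 198% for tbrd-1.

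narya, a RING-finger protein of meiotic crossover formation, had 160 and 80 counts in hybrids against 1 and 6 in D. simulans on the D. simulans gene, and a log2 fold change of 0.51 with an SE of 0.45 on the D. melanogaster gene (edgeR adjusted p = 0.407). nonA-l, an RNA-binding protein related to the product of no-on-transient A, had 33.6 and 29.0 CPM in hybrids against 3.95 and 2.39 CPM in D. simulans. On the D. melanogaster gene its log2 fold change was 0.23 with an SE of 0.26 (edgeR adjusted p = 0.517). For nonA-l the hybrid libraries, at 109 and 87.7 CPM, overlapped those of D. melanogaster, at 54.3 and 98.8 CPM.

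Nlg2, a neuroligin of synapse formation, was the only one of the 25 on which the hybrid and D. melanogaster libraries overlapped in whole-library CPM. Its D. simulans gene had 63.2 and 52.7 counts in hybrids against 9 and 14 in D. simulans, and 69.4 and 97.3 in D. melanogaster. When the share of reads misplaced in D. melanogaster was applied to the hybrid counts of the D. melanogaster gene, 75.3% of the hybrid counts on the D. simulans gene would be reached. On the D. melanogaster gene the log2 fold change was -0.10 with an SE of 0.22 (edgeR adjusted p = 0.762).

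The same calculation gave smaller amounts for the other pairs. It reached 31.4% for vn, 13.2% for CG13101 and 5.02% for Ance-5, and for 21 of the 25 pairs it was under 5%. In the other direction, reads of D. simulans expected on the D. melanogaster gene came to 100% or more of its hybrid counts for 9 pairs. Among them were SK (150%), CG10013 (137%), CG1503 (516%), blanks (1528%), Taf12L (111%), tbrd-1 (198%) and CG10063 (1696%). The share was 54.7% for vn and 17.9% for stan. On the D. melanogaster gene of SK the D. simulans libraries had 27.0 and 49.7 counts. They had only 0 and 3 on that of CG10013, 0 and 10.5 for vn, and 1 and 0 for stan. For 7 of the 10 higher counterparts the share of expected reads was under 20%.

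CG10063 had 103 and 105 CPM in hybrids against 1.58 and 2.48 CPM in D. simulans, the largest fold after narya and CG1503 among the 25. Its D. melanogaster gene had 8 and 4.004 counts in hybrids, and a log2 fold change of -1.10 with an SE of 0.57 (edgeR adjusted p = 0.188). Reads of D. simulans expected on this D. melanogaster gene came to 1696% of its hybrid counts. Of the exon bases of CG10063, 10.6% overlap another gene, CG9953. CG13067 and CG13101 were not called (log2 fold changes of 0.93 with an SE of 0.53 and of -0.15 with an SE of 0.25), and CG13540, CG14132, CG14346 and CG14932 had too few counts on the D. melanogaster gene to be tested. Over the 25 pairs, the D. simulans gene held more than 50% of the hybrid counts of the pair in 18, and more than 90% in 9.

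The rule compares each D. simulans gene with the other D. simulans genes of its library. On the whole-library scale, on which D. simulans genes share the hybrid library with those of D. melanogaster, 66 D. simulans genes passed the same limits.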

How the data were processed

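Reads were sorted by the authors with kallisto 0.50.0 (per the submitters' processing notes) between the merged RefSeq transcripts of both species and summed to protein-coding genes. The deposited estimated counts are fractional numbers of reads per gene, and the TPM values deposited by the authors are abundances relative to all transcripts. No strand option is stated for the assignment, so overlapping genes can share reads. For D. melanogaster replicate 2 the estimated counts stand under a repeated TPM name and were identified from their values, and 6 columns of transcript lengths were not used.

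CPM was computed over D. simulans genes, D. melanogaster genes, or whole libraries, as stated. The members, gene lists and tests were chosen with earlier results of these data known. D. simulans identifiers carry no names in the sources used here. Names come from a study table of orthologous pairs, matched where all 12 estimated counts of a pair were equal to 3 decimals. Only its first 1999 rows could be read, and 1996 were matched. Positions of D. melanogaster genes are those of the RefSeq table of Release 6. D. simulans positions and all sequences were not analysed here.

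D. melanogaster genes were tested in hybrids against D. melanogaster with edgeR 4.0.16 in R 4.3.3 (quasi-likelihood, two-sided, counts rounded, filterByExpr minimum of 10, TMM, Benjamini-Hochberg over 8202 genes). Genes were called where the adjusted p-value was below 0.05 and the change at least 1 on the log2 scale. The SE is the absolute log2 fold change divided by the square root of F. Reads expected from the other species are the counts on the counterpart multiplied by the rate of misplaced reads in the parental libraries. On simulated data for this comparison (8202 genes, 200 changed by 2 on the log2 scale), 98.5% of changed genes were recovered. The simulation gave every gene the same dispersion and drew changed genes from all levels, so its rate does not carry over to scarce counterparts. DESeq2 1.42.0 and other settings were tried as alternatives.

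Named are the 10 members with the highest mean hybrid CPM, those without counts in D. simulans, the 5 highest in D. melanogaster, the 3 nearest on each side of the 4-fold limit, members with a called counterpart, and other named counterparts by role, the last chosen after their values were seen. Replicates were compared only as 2 libraries per group. The p-values set each change against the variation between these libraries, moderated over all tested genes.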

Additional observations from a re-analysis of the deposited data

Results flagged for a closer look

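CG14314 and CG1503 moved in opposite directions on the genes of the parents. The D. melanogaster gene was lower in both hybrid libraries than in both D. melanogaster libraries, with log2 fold changes of -2.62 for CG14314 and -2.42 for CG1503, while the D. simulans gene was raised in both hybrid libraries over both D. simulans libraries by the rule that chose it. CG14314 passed the filter on low counts in both groups, and CG1503 through the D. melanogaster libraries alone, where it is high. Reads expected from D. simulans came to 516% of the hybrid counts on the D. melanogaster gene of CG1503, and to 0% for CG14314. The difference between the changes on the 2 genes of each pair was not tested. Groups of 2 libraries do not allow a search for a library that stands apart.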

How the results depend on the processing

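With CPM over both species 66 D. simulans genes passed the rule, and at 8-fold 76. Leaving out 1 library, which makes the rule looser, gave 152 to 176 genes, of which 57 to 72 were silent. With TMM factors 115 passed, with TPM 146, with hybrid floors of 1 and 5 CPM 152 and 90, and with reads expected from the other species taken off, an alternative chosen after seeing the data, 123. Of the 126, 3 were silent when 0 counts were asked of both D. simulans libraries, and 48 had more than 3 counts in both D. melanogaster libraries, against 66 to 68 with a count in the single library left.

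Library totals over both species, which move the median log2 fold change to -0.92 on D. melanogaster and -0.72 on D. simulans genes, called 79 D. melanogaster genes higher (3604 lower) and 237 D. simulans genes higher (2506 lower), the latter against 425 (800 lower) of 8207 tested, and 6 lower counterparts. Without 1 library 164 to 474 D. melanogaster genes were higher, the most without D. melanogaster replicate 2, and 8 to 10 counterparts. Taking off expected reads left 7 higher and gave 5 lower counterparts. SK then turned to -7.39, a value set by counts held at 0, CG10013 was not tested, and vn was not called (0.40), nor was it in DESeq2 (adjusted p = 0.0695). With library totals, vn (0.62) and beat-IIIc (0.48) were not called.

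Replicate numbers did not pair the samples (correlation of deviations -0.000399 and 0.0362). A fit with this block gave 298 higher calls (901 lower) on D. melanogaster genes, 429 (803) on D. simulans genes and 10 (2) on counterparts, so the block moved no count past 1.5 times.

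At these totals 3 counts correspond to 0.134 to 0.231 whole-library CPM. Counts cover counting error only, and PCR copies were not told apart.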
